A study of Camelus dromedarius with 10 samples.

Results

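The MAP kinase cascade was followed here as a set of 41 genes, chosen by name: 12 MAP kinases, 7 MAP2Ks, 15 MAP3Ks, 5 MAP4Ks and the RAF kinases ARAF and BRAF. A gene ID was paired with 40 of the 41 symbols, among 22444 gene IDs in the counts. MAP3K15 had no paired ID and is not analysed here. All 40 passed the filter on low counts, as did 14432 IDs in all. The counts came from RNAseq of the rostral supraoptic nucleus (SON) of male dromedary camels aged 4 to 5 years. The 5 control camels drank freely, whereas the 5 water-deprived (WD) camels had feed but no water for 20 days, and each library is 1 camel. Libraries are named by group and animal number (CON2, CON3, CON4, CON5 and CON13; WD6, WD7, WD8, WD9 and WD15). The question was whether the transcripts of the cascade differ between the SON of control and WD camels.

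MAP kinase signalling passes a stimulus down a relay of protein kinases. A MAP3K, or a RAF kinase acting at the same level, phosphorylates a MAP2K, which in turn phosphorylates a MAP kinase on a threonine and a tyrosine, and some MAP4Ks act on the MAP3Ks above. The main arms end in the ERK kinases, which respond to growth factors and to neuronal activity, in ERK5, and in the JNK and p38 kinases, which respond to stress. Hyperosmotic stress is a classic activator of p38 and JNK, and ERK is activated in magnocellular neurones, the vasopressin and oxytocin cells of the SON, by osmotic stimulation. The cascade is switched on by phosphorylation, which RNAseq does not measure, so the values here are transcript levels and not kinase activity.

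Between 1665098 and 8126641 read pairs were counted per library, and 5 gene IDs took from 27.7% to 76.1% of them. Levels are given as CPM, in which read pairs are expressed per 1e+06 of the TMM-scaled library, and are not divided by gene length, so they do not rank different genes by transcript abundance. CON13 and WD6 stand apart, with 397495 and 1106575 counts outside the 5 dominant IDs. One count was worth 1.20 CPM in CON13, 0.475 CPM in WD6 and between 0.0864 and 0.237 CPM in the other 8 libraries. The 40 members together received from 2087 counts in CON13 to 15697 counts in WD9. Of the markers of hypothalamic neurones, PDYN, OTP and SIM1 had counts in every library, whereas AVP and OXT had no paired ID and are not analysed here. In bulk tissue, fewer cells of a type and less RNA per cell cannot be told apart.

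No member of the cascade passed the threshold between WD and control camels. By edgeR's quasi-likelihood F test, 0 of 40 members had an adjusted p of at most 0.05, against 0.499% of all genes tested, and the lowest adjusted p of a member was 0.407. DESeq2's Wald test also called 0 of 40, against 1.27% of all genes, with a lowest adjusted p of 0.203. At an unadjusted p under 0.05 there were 6 members by edgeR (15% of 40), against 9.31% of all genes, and the same 6 by DESeq2, against 8.83%. Of these, MAP2K3 and MAP3K14 were higher in WD camels (2 members, against 4.91% of all genes), and MAPK3, MAPK7, MAP2K2 and MAP3K12 were lower (4 members, against 4.41%). This number of 6 depends on single camels, and so does the share of all genes. It was 1 without WD15 (6.39% of all genes), 2 without CON3 (6.9%) or without WD8 (7.62%), and 3 without CON13 (7.83%). With RIN, the RNA integrity number, as a covariate it was 3 (9.57% of all genes), and with the 5 shallowest libraries marked by a covariate it was 9 (12.6% of all genes).

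The data limit how large a change of the cascade could have been. The 95% interval of the log2 fold change (LFC) lay within -1 and 1, or less than a doubling either way, for 33 of 40 members (82.5%), against 66.2% of all genes tested. The median half-width of this interval was 0.463 for members and 0.550 for all genes, and the median biological coefficient of variation was 0.231 for members and 0.263 for all genes. A log2 fold change within ±0.25 was fitted for 23 members. Only MAP4K1, MAP3K14, MAP3K8 and MAP3K11 were fitted beyond ±0.5. Wide intervals that reach beyond ±1 were those of MAPK13, MAPK15, MAP2K6, MAP3K8, MAP3K11, MAP3K14 and MAP4K1.

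**Figure D1:**
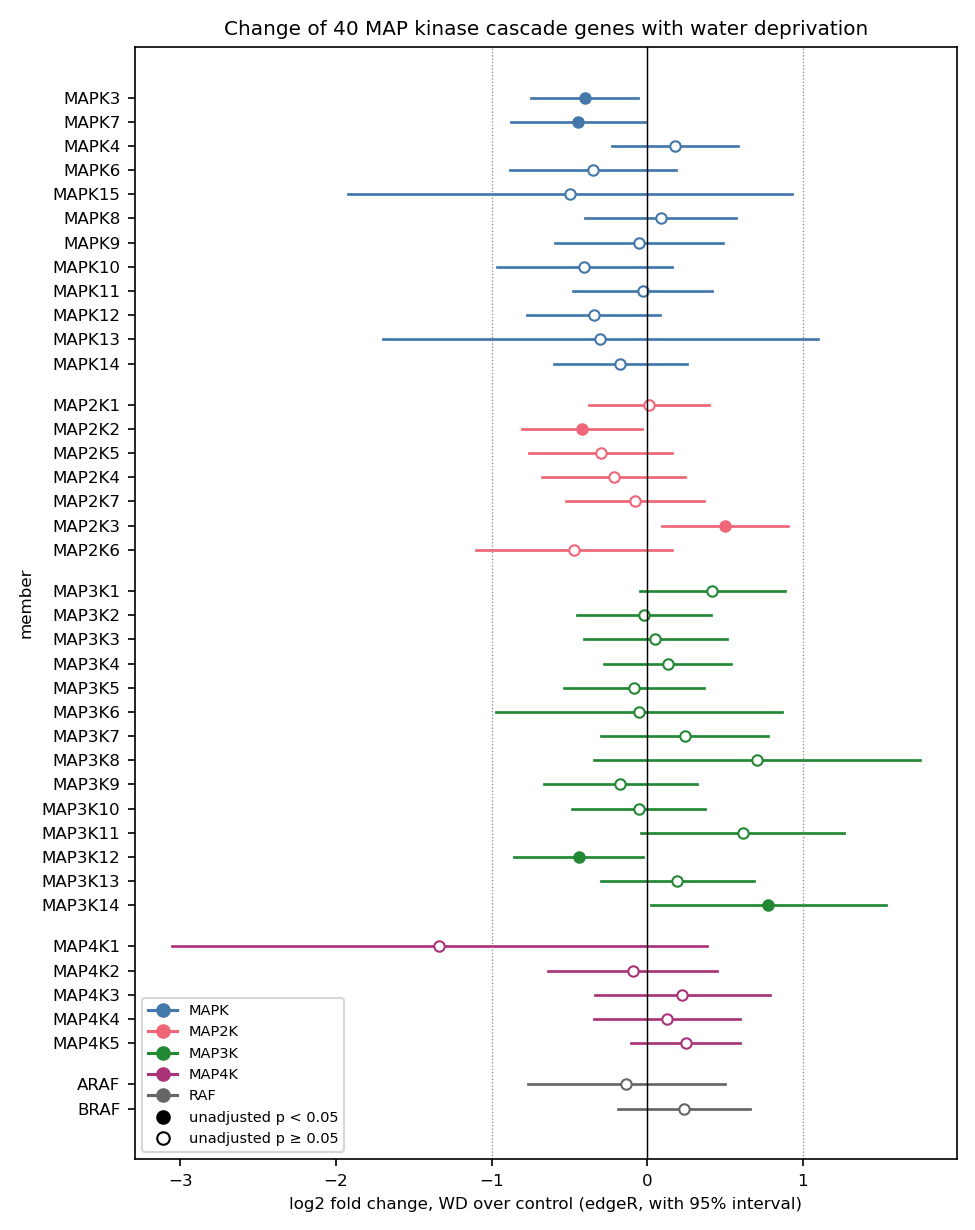
Log2 fold change of WD over control for the 40 members, ordered by tier, with the 95% interval from edgeR as a bar; filled points have an unadjusted p under 0.05 and dotted lines mark -1 and 1. Intervals of 33 members lie between the dotted lines, MAP4K1 has the widest, and 10 of the 12 MAP kinases lie left of 0.

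Taken by tier, 10 of 12 MAP kinases and 5 of 7 MAP2Ks had an LFC below 0, with medians of -0.32 and -0.22. The MAP3Ks were split into 8 above and 6 below 0 (median 0.09), the MAP4Ks into 3 above and 2 below (median 0.13), and the RAF kinases into BRAF above and ARAF below, although ARAF also lay above 0 without CON13. Over all 40 members 24 lay below 0 (60%), against 48.1% of all genes, and the median was -0.05, against 0.02 for all genes. The count of MAP kinases below 0 was 8 of 12 without CON13 and WD6. With library totals in place of TMM it was 7 of 12, but that scaling also moved the median of all genes to 0.16, and 9 of the 12 lay below this median. These counts carry no test. With each library left out in turn, 13 of the 40 members turned sign in at least 1 fit. Apart from ARAF and MAPK13 these had an LFC within ±0.1 (MAPK8, MAPK9, MAPK11, MAP2K1, MAP2K7, MAP3K2, MAP3K3, MAP3K5, MAP3K6, MAP3K10 and MAP4K2), and library totals in place of TMM turned 8 members from below to above 0. Among members that kept their sign, small LFCs moved widely too. That of MAP3K4 ranged from 0.02 (without WD6) to 0.19, that of MAP4K4 from 0.0036 (without WD15) to 0.29 (without CON2), and that of MAP3K9 from -0.36 (without WD6) to -0.10 (without WD8). Those of MAPK4, MAPK14 and MAP3K13 ranged from 0.10 to 0.27, from -0.29 to -0.08 and from 0.10 to 0.32.

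In the ERK arm, mean levels of the ERK1 and MEK2 transcripts were lower in WD than in control camels without passing the threshold, and those of MEK1 were nearly equal. MAPK3, which encodes the terminal kinase ERK1, was measured at 73.4, 84.9, 104, 80.1 and 64.6 CPM in CON2, CON3, CON4, CON5 and CON13, and at 69.8, 65.0, 60.7, 60.8 and 55.0 CPM in WD6, WD7, WD8, WD9 and WD15. Only CON13 among the controls reached into the WD range, under WD6 and WD7, and the other 4 controls lay above every WD camel. Mean levels of MAPK3 were 81.4 ± 14.8 CPM over the 5 control and 62.3 ± 5.50 CPM over the 5 WD libraries (SD). Its LFC was -0.40 ± 0.16 (SE), with a 95% interval from -0.75 to -0.06, an unadjusted p of 0.0252 and an edgeR adjusted p of 0.453. Without CON13 and WD6, the shallowest libraries, MAPK3 did not overlap between the groups, with an LFC of -0.52 and an edgeR adjusted p of 0.176, the lowest of any member in that fit.

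MAP2K2 encodes MEK2, which together with MEK1 phosphorylates the ERK kinases. Its levels were 83.2, 132, 102, 94.0 and 112 CPM in the control libraries, in the order above, and 96.8, 89.7, 68.4, 78.8 and 58.1 CPM in the WD libraries. WD8, WD9 and WD15 lay below every control, whereas WD6 and WD7 lay above CON2. The means were 105 ± 18.6 CPM (SD, n = 5) and 78.4 ± 15.6 CPM (SD, n = 5), and the LFC was -0.42 ± 0.18 (SE, 95% interval -0.80 to -0.03, unadjusted p of 0.0354, edgeR adjusted p of 0.492). MAP2K1, which encodes MEK1, had 62.5, 85.9, 96.8, 87.4 and 63.4 CPM in control and 101, 92.6, 75.9, 71.5 and 63.1 CPM in WD libraries. Both groups covered nearly the same range, and the LFC was 0.01 ± 0.18 (SE, 95% interval -0.38 to 0.40).

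The ratio of MAP2K2 to MAP2K1 within a library does not depend on how libraries are scaled. On the log2 scale it was 0.41, 0.62, 0.07, 0.10 and 0.82 in the control libraries and -0.06, -0.05, -0.15, 0.14 and -0.12 in the WD libraries. All 5 controls had more read pairs on MAP2K2 than on MAP2K1, as did only WD9 among the WD camels, which lay within the control range. The mean of the 5 control libraries was 0.41 ± 0.32 (SD), and that of the 5 WD libraries was -0.05 ± 0.11 (SD). The difference of -0.45 had a two-sided exact permutation p of 0.0238, and 0.0952 after adjustment over the 8 ratios tested, so it did not pass the threshold. The smallest p that 5 libraries against 5 allow is 0.00794. The 8 pairs were chosen with earlier results of these data known. The p-values of the ratios are therefore not independent of the LFCs of their members.

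The RAF kinases, which sit above MEK1 and MEK2, showed no difference larger than their spread. BRAF had 28.0, 33.6, 49.3, 47.6 and 25.1 CPM in control and 47.0, 50.3, 37.6, 47.4 and 39.6 CPM in WD libraries. CON2, CON3 and CON13 were below every WD camel, and CON4 and CON5 lay within the WD range. Means of BRAF were 36.7 ± 11.2 and 44.4 ± 5.45 CPM (SD, n = 5 each), with an LFC of 0.24 ± 0.20 (SE) and an edgeR adjusted p of 0.785. This LFC was 0.12 without CON2 and 0.15 without CON13. ARAF averaged 12.4 ± 6.65 CPM in control and 10.0 ± 2.65 CPM in WD camels (SD, n = 5 each), with an LFC of -0.13 ± 0.30 (SE). CON13 was the highest library at 23.9 CPM, and without it the LFC of ARAF was 0.09.

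Both members of the ERK5 arm had an LFC below 0. MAPK7 encodes ERK5, a large MAP kinase with a transcriptional activation domain in its long C-terminal tail, and its level was 34.4, 46.4, 31.0, 28.0 and 40.7 CPM in control and 37.0, 26.1, 23.8, 20.2 and 25.8 CPM in WD libraries. All WD camels but WD6 were below every control, and WD6 was above CON2, CON4 and CON5. The means were 36.1 ± 7.44 CPM (SD, n = 5) and 26.6 ± 6.28 CPM (SD, n = 5), and the LFC was -0.44 ± 0.21 (SE, 95% interval -0.88 to -0.01, unadjusted p of 0.0448, edgeR adjusted p of 0.527). MAP2K5, which encodes MEK5, the kinase that activates ERK5, averaged 33.6 ± 12.5 CPM in control and 26.1 ± 3.30 CPM in WD camels (SD, n = 5 each). Its LFC was -0.30 ± 0.22 (SE, edgeR adjusted p of 0.727), and the highest library was CON13 at 55.0 CPM, without which the LFC was -0.13. MAP3K2 and MAP3K3, which encode the MEK5 activators MEKK2 and MEKK3, had LFCs of -0.02 ± 0.21 and 0.05 ± 0.22 (SE).

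**Figure D2:**
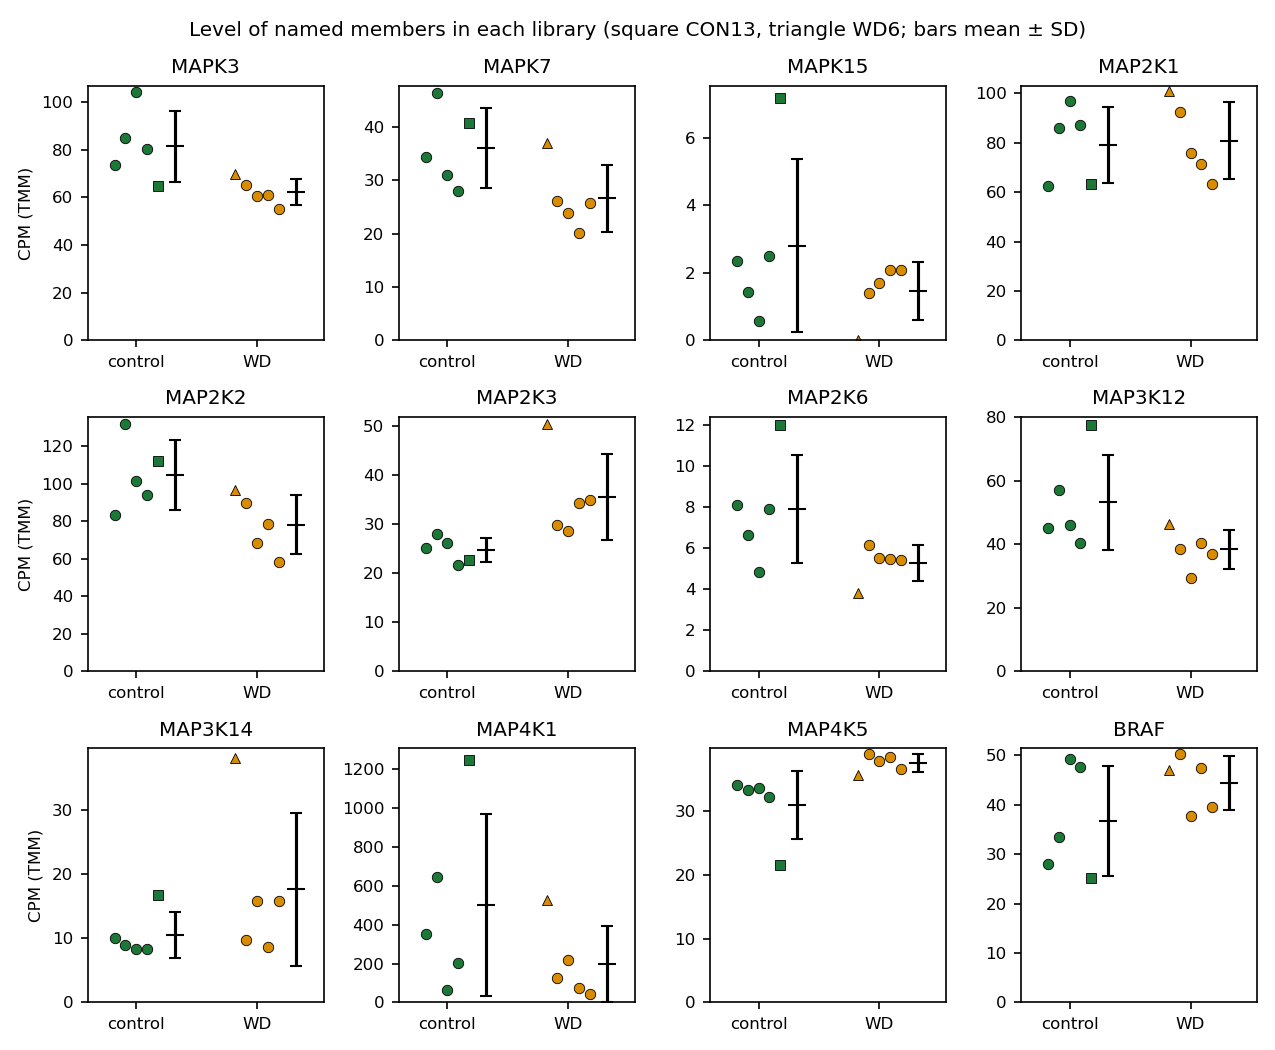
Level in CPM after TMM scaling of 12 members in each library (control left, green; WD right, orange; the square is CON13 and the triangle is WD6), with the group mean and SD as bars; every axis starts at 0. MAP2K3 and MAP4K5 separate the groups completely, MAPK3 does so when the square is set aside, MAPK7 and (only just) MAP3K12 do so when the triangle is, and MAP4K1 runs from 44.2 to 1246 CPM.

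MAP2K3 and MAP2K6 encode MKK3 and MKK6, the dedicated activators of the p38 kinases, and their LFCs lay on opposite sides of 0. MAP2K3 had 25.2, 27.9, 26.0, 21.7 and 22.7 CPM in control and 50.3, 29.7, 28.6, 34.2 and 34.8 CPM in WD libraries. Every WD camel lay above every control, the nearest being WD8 and CON3, and WD6 lay far above the other 4. One other member, MAP4K5, also had groups that did not overlap, which makes 2 of 40 (5%), against 2.62% of all genes, or 1.34% counting only genes higher in WD camels. The means of MAP2K3 were 24.7 ± 2.53 CPM over the 5 control and 35.5 ± 8.70 CPM over the 5 WD libraries (SD). An LFC of 0.50 ± 0.19 (SE, 95% interval 0.09 to 0.90) gave the lowest unadjusted p of the members, 0.0185, and an edgeR adjusted p of 0.407. Without WD6 the LFC of MAP2K3 was 0.35.

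MAP2K6 had fewer counts, 353 over the 10 libraries, and was measured at 8.11, 6.62, 4.82, 7.91 and 11.96 CPM in control and 3.80, 6.12, 5.53, 5.44 and 5.42 CPM in WD libraries. All WD camels but WD6 lay between CON4 and CON3, the lowest control libraries. Means were 7.88 ± 2.63 CPM (SD, n = 5) and 5.26 ± 0.868 CPM (SD, n = 5), with an LFC of -0.47 ± 0.30 (SE, edgeR adjusted p of 0.683). The log2 ratio of MAP2K3 to MAP2K6 was 1.62, 2.06, 2.42, 1.45 and 0.89 in control and 3.65, 2.27, 2.35, 2.64 and 2.66 in WD libraries. Only CON4 among the controls reached into the WD range, above WD7 and WD8. The difference of the means, 1.03, had an exact permutation p of 0.0238, and 0.0952 after adjustment over the 8 ratios. With each library left out in turn, it ranged from 0.79 to 1.21 and its adjusted exact permutation p from 0.0635 to 0.190, and the same range of p holds for MAP2K2 to MAP2K1.

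The p38 kinases themselves lay close to the control level or slightly below. MAPK14, encoding p38 alpha, averaged 24.8 ± 4.69 CPM in control and 21.6 ± 4.07 CPM in WD camels (SD, n = 5 each; LFC -0.17 ± 0.20, SE). MAPK11, p38 beta, had an LFC of -0.03 ± 0.21 (SE) and MAPK12, p38 gamma, one of -0.34 ± 0.20 (SE, edgeR adjusted p of 0.648). MAPK13, p38 delta, had 122 counts in all and no count in CON13 or WD6, where a count of 0 allows up to 3.59 and 1.42 CPM (3 counts, counting error only), so its LFC of -0.30 ± 0.66 (SE) says little, and it ranged from -0.57 to 0.30 with each library left out. The ratio of MAPK14 to the other 3 p38 genes differed by -0.04 between the groups on the log2 scale, with an exact permutation p of 0.794.

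In the JNK arm no member had an unadjusted p under 0.05. MAPK8 and MAPK9, which encode the widely expressed JNK1 and JNK2, had LFCs of 0.09 ± 0.23 and -0.05 ± 0.26 (SE), and both were lowest in WD6 (9.02 and 16.1 CPM). MAPK10, encoding JNK3, which is mainly found in the nervous system, averaged 63.3 ± 24.9 CPM in control and 48.2 ± 17.9 CPM in WD camels (SD, n = 5 each). Its LFC was -0.40 ± 0.27 (SE, edgeR adjusted p of 0.694), and -0.17 without CON4. MAP2K4 and MAP2K7 encode MKK4, which acts on JNK and p38, and MKK7, which acts on JNK alone. Their LFCs were -0.22 ± 0.22 and -0.08 ± 0.21 (SE), that of MAP2K4 being -0.06 without CON4. In relation to MAPK8 and MAPK9 together, MAPK10 differed by -0.29 on the log2 scale, within the spread of the libraries (exact permutation p of 0.230).

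Among the atypical MAP kinases, which are not activated by a classical MAP2K, MAPK4 (ERK4) had an LFC of 0.18 ± 0.19 (SE) and MAPK6 (ERK3) one of -0.35 ± 0.25 (SE), which was -0.18 without WD6. MAPK15, an autophosphorylating kinase also called ERK8, had 101 counts in all, the fewest of the members. It was measured at 2.35, 1.42, 0.574, 2.49 and 7.17 CPM in control and at 0, 1.40, 1.69, 2.07 and 2.08 CPM in WD libraries. CON13 alone lay above 2.49 CPM, on 6 counts, and without CON13 the LFC of MAPK15 was -0.11, against -0.50 ± 0.68 (SE) with all libraries.

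The MAP3Ks receive the stimulus, and 2 of the 14 had an unadjusted p under 0.05, in opposite directions. MAP3K12 encodes DLK, a neuronal kinase that activates JNK after axon injury. It was measured at 45.0, 57.0, 46.1, 40.6 and 77.7 CPM in control and at 46.5, 38.6, 29.5, 40.5 and 36.9 CPM in WD libraries. CON13 stood above all others, WD6 lay above CON2, CON4 and CON5, and the other WD camels lay below every control, WD9 only just. The means were 53.3 ± 14.9 CPM (SD, n = 5) and 38.4 ± 6.16 CPM (SD, n = 5), and the LFC was -0.44 ± 0.20 (SE, 95% interval -0.86 to -0.02, unadjusted p of 0.0393, edgeR adjusted p of 0.502). MAP3K13, encoding the closely related LZK, had an LFC of 0.19 ± 0.23 (SE). The log2 ratio of MAP3K12 to MAP3K13 differed by -0.65 between the groups, with an exact permutation p of 0.175, and by -0.33 without CON13 and -0.93 without WD6.

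MAP3K14 encodes NIK, the kinase that starts the non-canonical NF-kappa B pathway. Its levels were 10.0, 8.99, 8.38, 8.34 and 16.7 CPM in control and 37.96, 9.69, 15.8, 8.64 and 15.8 CPM in WD libraries. The groups overlapped, with WD7 and WD9 among the low controls, CON13 above 4 WD camels and WD6 far above the rest. Mean levels were 10.5 ± 3.56 CPM (SD, n = 5) and 17.6 ± 11.9 CPM (SD, n = 5), with an LFC of 0.78 ± 0.36 (SE, 95% interval 0.02 to 1.53, unadjusted p of 0.0440, edgeR adjusted p of 0.523). Without WD6 its LFC was 0.35.

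The other MAP3Ks had no unadjusted p under 0.05. MAP3K8 (TPL2, which feeds MEK1 and MEK2) had 222 counts, none in CON13, where 0 allows up to 3.59 CPM, and an LFC of 0.70 ± 0.50 (SE), or 0.38 without WD15. MAP3K9, MAP3K10 and MAP3K11 encode mixed-lineage kinases of the JNK arm, and their LFCs were -0.17 ± 0.23, -0.06 ± 0.20 and 0.61 ± 0.31 (SE). For MAP3K11 the lowest and the highest library were CON13 and WD6 (7.17 and 49.4 CPM), and without these libraries its LFC was 0.19. MAP3K1 and MAP3K4 (MEKK1 and MEKK4, upstream of JNK and p38) had LFCs of 0.42 ± 0.22 and 0.13 ± 0.19 (SE). MAP3K5 and MAP3K6, encoding the stress-sensitive kinases ASK1 and ASK2, had LFCs of -0.09 ± 0.21 and -0.05 ± 0.44 (SE), and MAP3K7, encoding TAK1, a kinase of cytokine signalling, had one of 0.24 ± 0.26 (SE), from 0.13 to 0.40 with each library left out.

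At the top of the cascade, MAP4K1 varied more between camels than any other member with counts in every library. MAP4K1 encodes HPK1, a kinase best known from blood cells. It had 353, 646, 61.4, 202 and 1246 CPM in control libraries and 527, 125, 220.2, 76.2 and 44.2 CPM in WD libraries. The levels of the groups overlapped over most of their range, with CON13 highest and WD15 lowest, 28.2-fold apart. MAP4K1 thereby took from 3.24% to 49.9% of all member counts of a library. The means were 502 ± 469 CPM (SD, n = 5) and 198 ± 195 CPM (SD, n = 5), and the LFC was -1.34 ± 0.78 (SE, 95% interval -3.05 to 0.38, edgeR adjusted p of 0.658). Its LFC was -0.69 without CON13 and -2.09 without WD6.

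MAP4K5, which encodes KHS, an activator of JNK in other cells, was among the steadiest. Levels of 34.2, 33.4, 33.6, 32.2 and 21.5 CPM in control and 35.6, 39.0, 37.8, 38.5 and 36.7 CPM in WD libraries did not overlap, although CON2 and WD6 were close. CON13 lay well below the other controls. The means were 31.0 ± 5.33 CPM (SD, n = 5) and 37.5 ± 1.40 CPM (SD, n = 5), with an LFC of 0.25 ± 0.17 (SE, unadjusted p of 0.158, edgeR adjusted p of 0.702), and the LFC was 0.17 without CON13. MAP4K2, MAP4K3 and MAP4K4, further kinases that act upstream of JNK, had LFCs of -0.09 ± 0.26, 0.23 ± 0.27 and 0.13 ± 0.22 (SE), that of MAP4K3 being 0.06 without CON13.

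**Figure D3:**
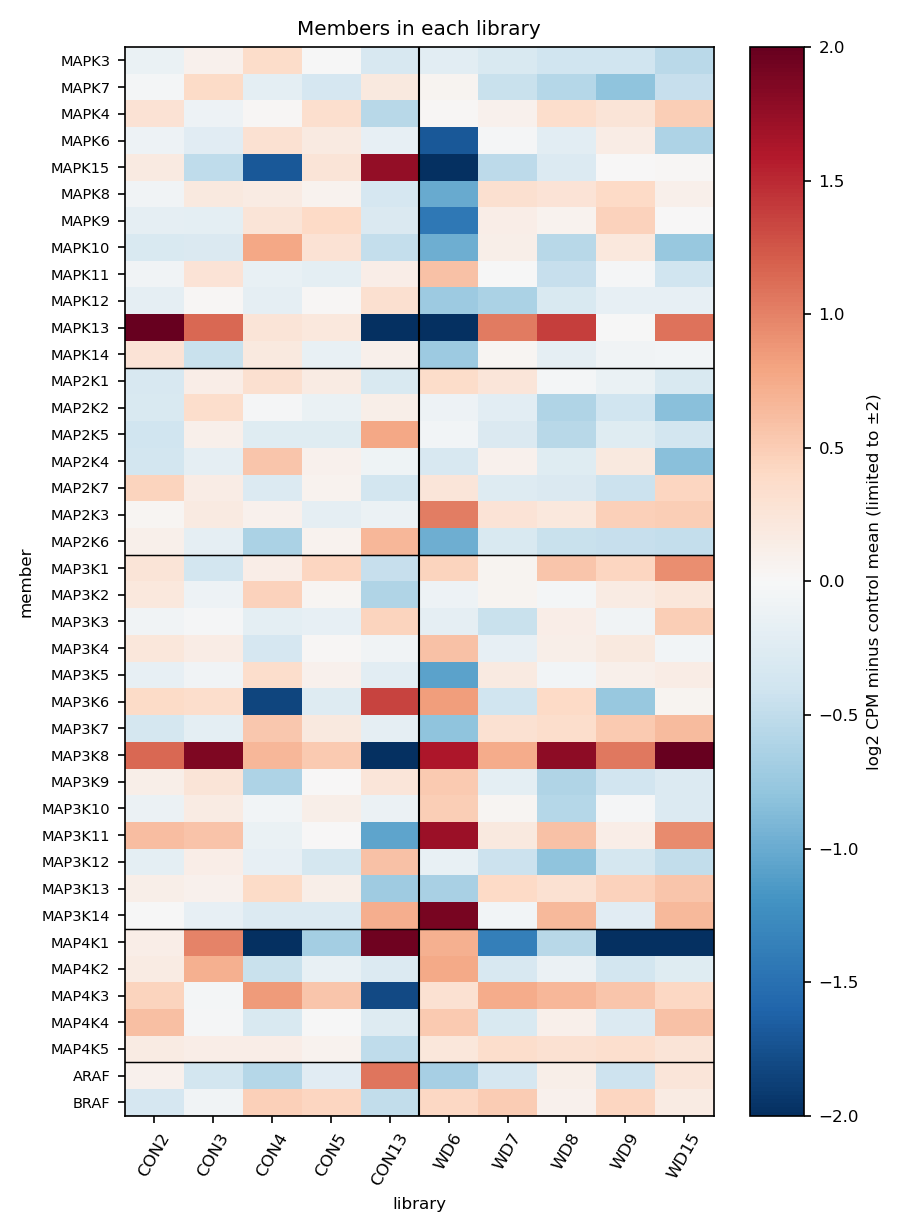
Log2 CPM of the 40 members (rows, by tier) in each library (columns) minus the control mean of the same member; colours are limited to ±2, and the black vertical line parts control from WD. The strongest colours fall in CON13 and WD6, in MAP4K1 and in the rows with the fewest counts (MAPK13, MAPK15 and MAP3K8).

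Across the 10 libraries, the highest was a median of 2.32-fold above the lowest over the 37 members with a count in every library. MAP2K1 had the smallest span, 1.62-fold, and after MAP4K1 the largest were those of MAP3K6 (9.47-fold), MAP3K11 (6.88-fold) and MAP4K3 (6.35-fold). The median coefficient of variation of the members was 25.4% among control and 26.8% among WD camels, and it was under 25% in both groups for 10 members. CON13 or WD6 was the lowest library for 21 of the 40 members and the highest for 17. Without both, 5 members had an unadjusted p under 0.05 by edgeR (12.5%, against 12.1% of all genes), all of them lower in WD camels (MAPK3, MAPK7, MAP2K2, MAP3K12 and MAP4K1). The groups then did not overlap for 5 members (12.5%, against 7.54% of all genes), which were MAPK3, MAPK7 and MAP3K12 below and MAP2K3 and MAP4K5 above control, and again edgeR called 0 members, against 0.59% of all genes.

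**Figure D4:**
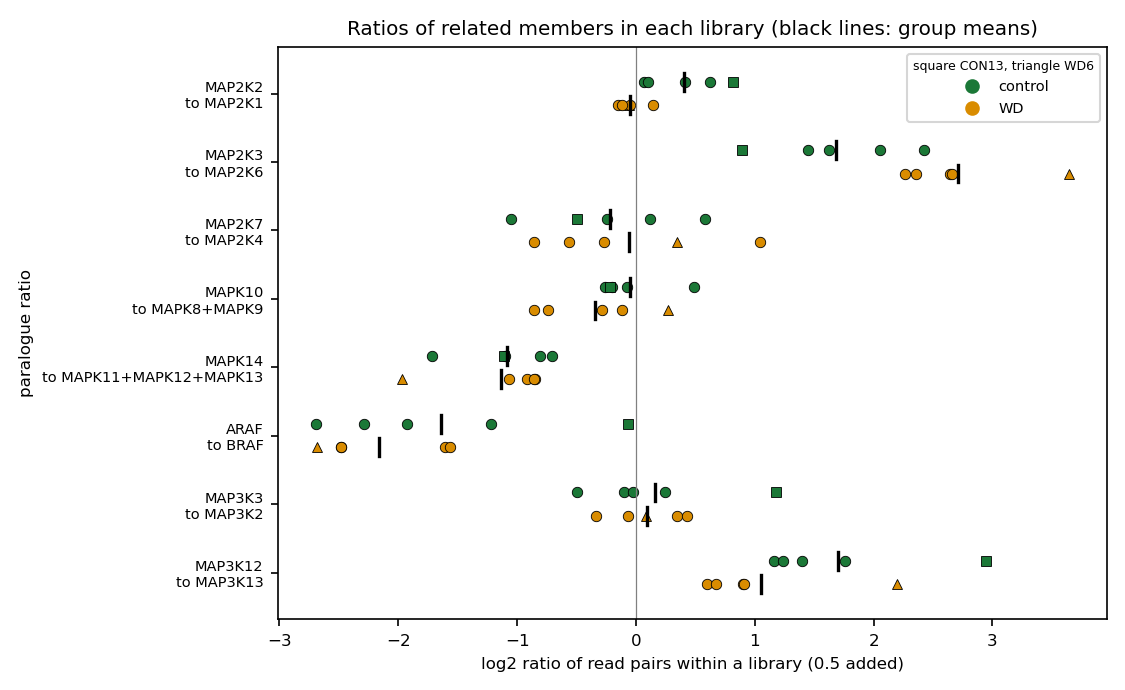
Log2 ratio of read pairs on related members within each library for the 8 ratios tested (control green, WD orange, black lines for group means; the square is CON13 and the triangle is WD6). Groups overlap in every row, and those of MAP2K2 to MAP2K1 and of MAP2K3 to MAP2K6 lie farthest apart for their spread.

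The other ratios gave no difference beyond the spread. The log2 ratio of ARAF to BRAF differed by -0.52 (exact permutation p of 0.365), but by -0.13 without CON13 and -0.0012 without CON13 and WD6. The difference was -0.07 for MAP3K3 to MAP3K2 (p of 0.849, exact permutation) and 0.16 for MAP2K7 to MAP2K4 (p of 0.730, exact permutation). After adjustment over the 8 ratios, the exact permutation p of those other than MAP2K2 to MAP2K1 and MAP2K3 to MAP2K6 ranged from 0.460 to 0.849.

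Kinases that the MAP kinases phosphorylate were read from a list of 11, all tested. None was called by edgeR, 7 had an LFC above and 4 below 0 (against 48.1% of all genes below 0), and 2 had an unadjusted p under 0.05 (against 9.31% of all genes) and no overlap between the groups (against 2.62%). RPS6KA3 encodes RSK2, a substrate of the ERK kinases. It was measured at 14.9, 19.4, 28.1, 21.1 and 3.59 CPM in control and at 28.9, 40.2, 28.4, 36.2 and 35.4 CPM in WD libraries. The groups did not overlap, though CON4 and WD8 were nearly equal, and CON13 was far below the rest, on 3 counts. Its LFC was 0.85 ± 0.27 (SE, edgeR adjusted p of 0.261), and 0.72 without CON13 and WD6.

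MAPKAPK2 encodes MK2, the main substrate kinase of p38 alpha. Its 18.4, 18.2, 16.4, 18.3 and 20.3 CPM in control and 22.8, 23.6, 24.4, 20.4 and 38.3 CPM in WD libraries did not overlap either. CON13 and WD9 were nearly equal, and WD15 lay well above the other WD camels. The LFC was 0.51 ± 0.20 (SE, edgeR adjusted p of 0.433), and 0.33 without WD15. The microglia markers on the list were CSF1R, SPI1, IRF8, TLR4, CX3CR1 and P2RY12. All 6 had LFCs above 0, from 0.62 to 0.98, against 48.1% of all genes below 0. An unadjusted p under 0.05 was reached by 5 (against 9.31% of all genes). None of the 6 was called, and the groups overlapped for each of them. Their summed level ranged from 172 to 261 CPM in control and from 204 to 599 CPM in WD camels, with WD15 highest. Without CON13 and WD6 all 6 LFCs were above 0 as well. Without WD15 they ranged from 0.08 to 0.72, with 3 at an unadjusted p under 0.05 (against 6.39% of all genes). Of the other glial and vascular marker lists, 5 of 6 endothelial genes and 1 of 5 oligodendrocyte genes had an LFC above 0. The pericyte gene PDGFRB and the astrocyte gene ALDH1L1 did so too (against 48.1% of all genes below 0). None of these genes was called (against 0.499%). An unadjusted p under 0.05 (9.31% of all genes) was reached by ALDH1L1, with an LFC of 0.55. The endothelial receptor genes FLT1 and KDR also reached it, with LFCs of 0.62 and 0.64. Of the neurone markers, PDYN, which encodes an opioid precursor made by vasopressin neurones, rose with an LFC of 1.93 ± 0.22 (SE, edgeR adjusted p of 0.000302). OTP, a transcription factor of hypothalamic neurones, had an LFC of -0.58 ± 0.24 (SE, edgeR adjusted p of 0.454), and SIM1, another, had one of -0.04 ± 0.22 (SE), which is 0.16 with library totals in place of TMM. The part of cell types in the values of MAPKAPK2, MAP3K14 and the other members was not tested.

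Transcription factors that MAP kinases phosphorylate or induce were a list of 11. Of these, 8 had an LFC above and 3 below 0, against 48.1% of all genes below 0. By edgeR 3 had an unadjusted p under 0.05 (against 9.31% of all genes) and 1 was called (against 0.499%). FOS, an immediate early gene induced through ERK and its target ELK1 in many cells, passed the threshold. It rose with WD, from a range of 11.7 to 16.7 CPM in control to one of 26.5 to 56.5 CPM in WD camels, with an LFC of 1.48 ± 0.22 (SE, edgeR adjusted p of 0.00313). With library totals in place of TMM the LFC of FOS was 1.62, but the call was lost (edgeR adjusted p of 0.221). ELK1 itself had an LFC of -0.50 ± 0.23 (SE, edgeR adjusted p of 0.510), and MEF2C, a target of p38 and ERK5, one of 0.49 ± 0.21 (SE, edgeR adjusted p of 0.492), or 0.29 without WD15. Another list held 10 further kinases that act on the cascade. Of these, 4 lay above and 6 below 0 (against 48.1% of all genes below 0), and none was called (against 0.499%). KSR2, a scaffold of the ERK arm, was the only 1 at an unadjusted p under 0.05 (against 9.31% of all genes). Its unadjusted edgeR p was 0.0349, with an LFC of -0.55 ± 0.24 (SE, edgeR adjusted p of 0.491).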

How the data were processed

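Stranded, paired-end libraries were made from RNA of the rostral SON after removal of ribosomal RNA. The authors trimmed with BBDuk, aligned with STAR to the Camdro2 assembly, and deposited raw counts of read pairs per gene from featureCounts. A second deposited table, of values divided by size factors, was not used. The annotation release and the strand setting are not given in the sources used here, so overlapping genes are uncertain. In a RefSeq gene table of another assembly, 4 members (MAP2K1, MAP3K5, MAP3K6 and ARAF) overlap another protein-coding gene, of 39 members found there.

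Symbols came from the study's supplementary tables, which paired 4316 of 22444 gene IDs. Groups came from the labels. WD and control were compared with edgeR 4.0.16 in R 4.3.3 (robust quasi-likelihood F test, TMM, filterByExpr by group, Benjamini-Hochberg over all 14432 genes tested, threshold 0.05). The standard error is the size of the LFC divided by the square root of F. Ratios are log2 of counts with 0.5 added, compared by a two-sided exact permutation test. Alternatives were DESeq2 1.42.0, other scalings and filters, RIN, short fragments or depth group as covariates, and each library left out. The fit without CON13 and WD6 was chosen after seeing the data. Replicates differed beyond sampling noise, the smallest chi-square between libraries being 8.62 per degree of freedom. The edgeR fit was tested on simulated counts of 14064 genes, of which 188 were changed. It called 92.4% of log2 changes of 2 but only 45.8% of log2 changes of 1, with 6 false calls. A change of 1 can therefore go uncalled.

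Values in every library are given for the member with the most control CPM (used only to choose members) and the one with the largest absolute LFC in each tier, members with an unadjusted p under 0.05 or no overlap, and members of ratios with a raw p under 0.05. The members, the ratio pairs and all lists were chosen with earlier results of these data known. Tables and figures used Python 3.11.15.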

Additional observations from a re-analysis of the deposited data

Results flagged for a closer look

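Of 96 groups of 5 libraries checked, over members and ratios, 19 held a library far from the other 4 of its group (Dixon's criterion, on log2 CPM or log2 ratios). Chance alone gives about 1 in 20, or 4.8. Leaving aside 4 member groups that hold a count of 0, whose place on a log scale is set by the prior count, 16 of 92 did so, against 4.6 by chance. In 14 of these 16 the library was CON13 or WD6, which are the shallowest once the dominant gene IDs are set aside, and the part of depth was not tested.

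WD6 was low for several MAP kinases. It stood at 9.02 CPM for MAPK8 against 19.6 to 24.0 in the other WD libraries, and at 16.1 CPM for MAPK9 against 44.2 to 60.2. It had 0 CPM for MAPK15 against 1.40 to 2.08, and 0 CPM for MAPK13 against 1.12 to 3.07, but a count of 0 in WD6 allows up to 1.42 CPM, so these zeros do not show it to be lower than every other WD library. Among the kinases above them, WD6 had 3.80 CPM for MAP2K6 (others 5.42 to 6.12), 22.3 CPM for MAP3K5 (45.3 to 53.4), 8.54 CPM for MAP3K7 (18.5 to 23.3) and 9.97 CPM for MAP3K13 (19.5 to 23.1). WD6 was high for MAP4K2, at 51.7 CPM against 23.8 to 28.1.

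CON13 was low for MAP4K5 (21.5 CPM, others 32.2 to 34.2) and for MAP3K13 (9.57 CPM, others 16.8 to 20.5). For MAP3K8 it had 0 CPM (others 2.20 to 5.68), which allows up to 3.59 CPM and so does not show it to be low. It was high for MAP3K3 (25.1 CPM, others 15.9 to 18.0) and for MAP3K14 (16.7 CPM, others 8.34 to 10.0). CON4 was low for MAP3K9 (18.5 CPM, others 28.5 to 33.8).

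Of the log2 ratios, WD6 stood apart in that of MAP2K3 to MAP2K6 (3.65, others 2.27 to 2.66), of MAPK14 to the other p38 genes (-1.97, others -1.07 to -0.85) and of MAP3K12 to MAP3K13 (2.20, others 0.59 to 0.91). CON4 stood apart in that of MAPK10 to MAPK8 and MAPK9 (0.49, others -0.26 to -0.07).

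The criterion depends on the scale. On CPM it was met in 11 member groups, against 15 on log2 CPM, and 6 met it on both. WD6 was then also high for MAP2K3, MAP3K9 and MAP3K14, CON13 for ARAF and CON2 for MAP4K4, whereas MAPK8, MAPK9, MAP2K6 and MAP3K7 in WD6 no longer met it.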

How the results depend on the processing

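No member of the cascade was called under any alternative run, and 390 of 418 recomputed values kept their direction and side of the threshold or moved little. As no LFC or ratio crossed the threshold, each counted among these whenever its sign held, whatever its size. The LFC of MAP4K1 ranged from -2.09 to -0.65 over the alternatives, and that of MAP3K14 from 0.35 to 0.96. The number of members with an unadjusted p under 0.05 was 6, but 1 with library totals only (3.04% of all genes), 3 without a filter on low counts (8.15%), 3 with RIN as a covariate (9.57%) and from 1 to 7 with each library left out in turn (6.39% to 13.4%), against 9.31% of all genes in the main comparison. Members whose groups do not overlap numbered 2 (2.62% of all genes), but 1 with library totals only (0.589%), 1 without the filter (1.76%) and 5 without CON13 and WD6 (7.54%). The median LFC of the members was 0.062 with library totals only, where that of all genes was 0.16.

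The LFC of MAP2K1, near 0, was -0.019 with depth group as a covariate, -0.16 without CON13 and WD6 and from -0.0903 to 0.0903 with each library left out, and that of MAPK15 was 0.088 without CON13 and WD6. Without these libraries the group differences of 3 small log2 ratios also turned sign: -0.012 for MAP2K7 to MAP2K4, 0.18 for MAP3K3 to MAP3K2 and 0.16 for MAPK14 to the other p38 genes. With each library left out they ranged from -0.12 to 0.36, from -0.23 to 0.18 and from -0.20 to 0.17. The causes were not tested. No paired analysis was possible because the groups share no replicate numbers. Levels per kilobase were not run, since no transcript lengths were at hand. MAPK13, MAPK15 and MAP3K8 had at least 1 library at 0, where their level is known only up to a limit.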

Other observations

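The gene ID whose log2 CPM followed that of MAP4K1 most closely over the 10 libraries, of 9662 IDs compared, was ENSCDRG00005006886, which has no paired symbol (Pearson r of 0.993 across libraries, against 0.965 for the next ID; 13203 counts in all). Its levels were 442, 631, 64.7, 237 and 1575 CPM in CON2, CON3, CON4, CON5 and CON13 and 443, 151, 244, 87.6 and 51.7 CPM in WD6, WD7, WD8, WD9 and WD15. It was chosen after its values were seen, its libraries are those of MAP4K1, and neither its position nor what it encodes is known here.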
